A study of Mus musculus with 12 samples.

Results

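The protein genes of the cytosolic ribosome were chosen by name: symbols of the form Rpl or Rps with a number, plus Rpsa, Rplp0, Rplp1 and Rplp2, without pseudogene names and without the Rps6k kinases. Of the 88 genes so named, 82 had a mean of at least 1 TPM (transcript abundance scaled by length and by library) over 12 mice, and all 82 were among the 17980 genes tested out of 38924 in the tables. By symbol alone, 49 of the 82 were counted to the large subunit and 33 to the small subunit. The annotation types 80 of the 82 as protein coding and 2, Rps3a2 and Rps4y2, as pseudogenes. The tissue was whole spinal cord from mice at 8 weeks of age, all of strain background B6J;CAST. The mice were 3 wild type (WT) females (mice 1, 2 and 10), 3 WT males (5, 11 and 12), 3 females heterozygous for the P278KY allele of Gars (3, 4 and 9) and 3 such males (6, 7 and 8). Gars encodes glycyl-tRNA synthetase, the enzyme that loads glycine onto its tRNA, and dominant mutations in it cause an inherited axonal neuropathy. The labels name no Cre or transgene, and the study asked which transcripts differ between mutant and WT cord.

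A cytosolic ribosome consists of a small subunit, which reads the mRNA, and a large subunit, which forms peptide bonds and carries the tunnel through which the new protein leaves. Each subunit holds ribosomal RNA and many proteins, nearly all present once per ribosome, so their genes are expressed in a coordinated way in every cell type of the cord. Their mRNAs begin with a run of pyrimidines, the 5′ terminal oligopyrimidine or TOP motif, through which the mTORC1 kinase and the protein LARP1 adjust their translation and stability. Mammalian genomes also hold a large number of processed pseudogenes of these genes, copies of the mRNA that were pasted elsewhere in the genome, and reads from short ribosomal protein mRNAs can match the gene and a copy equally well.

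Because of those copies, 2 kinds of sequence carry the results below. The first kind shows bases of the coding sequence at which a gene and a copy differ, and untranslated regions were not compared. The pairs are 25 bases of coding sequence from GENCODE M21 (GRCm38) transcripts, 5′ to 3′, with the base that differs in capitals. Positions are counted from 1 at the start of the coding sequence, the gene's base stands first and the copy's base last.
Rps3a1, T216C: agtgagccttgcTgatctacagaat
Rps3a2, T216C: agtgagccttgcCgatctacagaat
Rps3a1, T534C: agaggtgcagacTaatgacttgaag
Rps3a2, T534C: agaggtgcagacCaatgacttgaag
Rpl13, G519A: cacagaagaagaGaagaactttaag
Gm15710, G519A: cacagaagaagaAaagaactttaag
Rpl7a, A186G: ccgctacatcagActgcagcggcaa
Rpl7a-ps11, A186G: ccgctacatcagGctgcagcggcaa
Rpl34, T132C: agcacctaaatcTgcatgtggcgtg
Rpl34-ps1, T132C: agcacctaaatcCgcatgtggcgtg
Rpl34, C318G: cgttgtgaaagtCttgaaggcacaa
Rpl34-ps1, C318G: cgttgtgaaagtGttgaaggcacaa
Rpl35a, G156A: ttatgtgtataaGgcaaaaaacaat
Gm10243, G156A: ttatgtgtataaAgcaaaaaacaat

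The second kind is the start of the mRNA, where the TOP motif described above lies. Each window shown holds a run of C and T, which not every annotated start of a member does. The run's first base lay at −12 in Rpl7a, −5 in Rps9 and −2 in Rpl28 and Rps24, relative to the annotated start. It lay at 1 in Rpl38 and at 3 in Rpl13a. The windows are 30 bases around the annotated start (RefSeq, GRCm38.p6), each on the gene's own strand, with the run of C and T in capitals.
Rpl7a, chr2:26910792-26910821, plus strand: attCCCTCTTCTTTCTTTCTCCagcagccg
Rps9, chr7:3704033-3704062, plus strand: tgtCTCTCTTTgtctcgggcctgagttcgt
Rpl28, chr7:4792960-4792989, plus strand: tgtCTCTCTTTCCgtctccggccgccatag
Rpl13a, chr7:45128717-45128746, minus strand: agaCCTCCTCCTTTCCCaggcggctgccga
Rpl38, chr11:114668577-114668606, plus strand: gttCTTTCCCCgttctcttcggttctcatc
Rps24, chr14:24490673-24490702, plus strand: ggtCCTTCCTTgcgcgttgatatgattggt
A C followed by at least 6 more C or T, within 30 bases of the start on either side, was found at 39 of 72 annotated starts of the 60 members with a promoter entry (54.2%), against 26.5% of 32851 starts of all genes. The letters CCGGAAGT, on either strand of the 300-base promoter window, were present at 16.7% of the members' starts and at 3.89% of all starts. These matches describe letters in a window and not the use of a site.

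Levels of the 82 genes ran from 6.79 TPM for Rpl3l to 1326 TPM for Rpl13a, with a median of 363 TPM, against a median of 13.8 TPM over all tested genes. The 5 highest were Rpl13a (1326 TPM), a large subunit protein, Rplp1 (1286 TPM), an acidic protein of the stalk that recruits elongation factors, Rps29 (981 TPM), Rpl23a (951 TPM), which lines the mouth of the exit tunnel, and Rps24 (936 TPM). The 5 lowest were Rpl3l (6.79 TPM), the striated muscle paralog of Rpl3, then Rpl31 (20.1 TPM), Rps6 (21.4 TPM), Rpl12 (21.8 TPM) and Rpl27 (22.3 TPM). Rps6 encodes the small subunit protein phosphorylated downstream of mTORC1, and it is needed in every ribosome, as are Rpl31, Rpl12 and Rpl27. Of the 6 named genes below 1 TPM, Rps12l1 came nearest the minimum at 0.8275 TPM, and Rps27, a core small subunit gene, was listed at 0 TPM in all mice.

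The low values of these core genes were matched by high values of near-identical copies. A search of GENCODE M21 transcripts with each member's coding sequence found 381 copies of members at 95% identity or more over at least 80% of the coding sequence, and 66 of the 82 members had at least 1. For 17 members the copies held more TPM than the gene itself. Rpl31 had 20.1 TPM, whereas its copy Rpl31-ps8 (chr15:90764279-90764656), identical to it over the coding sequence, had 793 TPM. Rps6 had 21.4 TPM and the identical Rps6-ps4 (chr2:75191073-75191822) had 581 TPM. Rpl28 had 62.6 TPM and Rpl28-ps1 had 595 TPM, Rpl27a had 60.4 TPM and Gm7536 had 768 TPM, and Rpl5 had 26.1 TPM and Gm15500 had 356 TPM. Rps27rt, whose coding sequence is identical to that of Rps27, had 837 TPM. RSEM, which made the values, divides reads that match several genes among them by estimate, so the files do not say whether such a read came from the gene or the copy. Each member was therefore also summed with its copies, and that sum is called here a family. The lowest family was still Rpl3l at 6.79 TPM, but 76 families had at least 100 TPM, compared with 65 members alone.

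**Figure D1:**
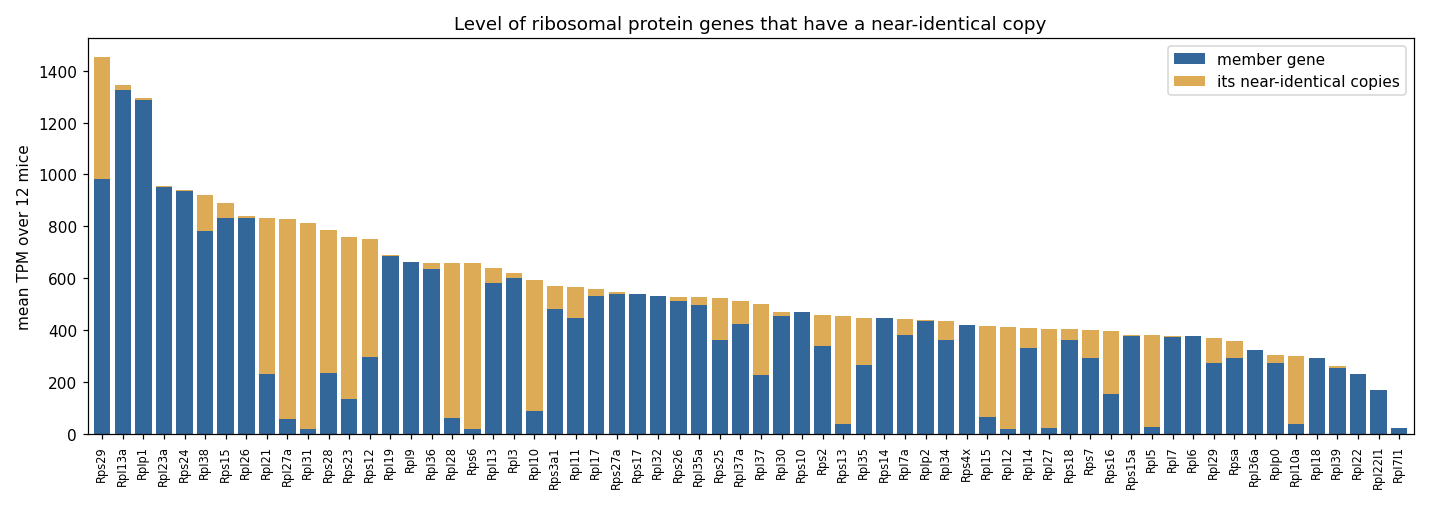
Mean TPM over the 12 mice (vertical axis) of members that have a near-identical copy, with the gene in blue and its copies stacked in yellow. Rpl31, Rps6, Rpl12, Rpl27 and Rpl5 are low bars by themselves and reach the level of their neighbours when the copies are added. Rps3a2, itself a member, is counted in the yellow part of Rps3a1.

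The libraries held 26982140 to 39339999 expected counts, and the 82 members took 0.906% to 0.996% of them. Mean fragment lengths were 138.9 to 147.2 bases in WT and 137.6 to 148.2 in P278KY libraries. Neuron, oligodendrocyte, astrocyte and microglia markers of spinal cord were present in every library. CPM are read counts scaled to the library total as adjusted by a TMM factor per library, with no length correction. Skeletal muscle markers summed to 1550 to 10802 CPM in mice 1 to 4, all females, and to 104 to 350 in the other mice. The sensory ganglion list averaged 2.19 to 3.06 in mice 7, 10 and 11 on the log2 CPM scale and −0.09 to 0.44 in the other 9, and clock genes summed to 842 to 892 CPM in mice 9 to 12, of which 3 are WT, and to 1009 to 1104 CPM in mice 1 to 8. edgeR called 0 members for genotype without mice 1 to 4, without mice 7, 10 and 11, and without mice 9 to 12. The 9 Schwann cell markers summed to 2518 to 3478 CPM in WT and 1473 to 2492 CPM in P278KY libraries, so the genotypes did not overlap on that measure, and its part in the results below was not tested. In bulk tissue fewer cells of a type and less RNA per cell cannot be told apart. The labels do not say how the mice were related, and p-values measure the spread between these mice.

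No cytosolic ribosomal protein gene changed with genotype by the main test, edgeR's quasi-likelihood test with Benjamini-Hochberg adjustment over all genes and a threshold of 0.05. It called 0 of the 82 members, against 5.32% of all tested genes (2.36% higher and 2.95% lower in P278KY). The smallest adjusted p of a member was 0.0969, for Rps20. At an unadjusted p under 0.05 there were 9 members, 3 higher and 6 lower in P278KY, against 20.2% of all genes. The median log2 change (P278KY over WT) was −0.02 over the members and −0.00 over all tested genes, with 28 members positive and 54 negative. Median changes were −0.02 for the small subunit and −0.02 for the large subunit. None of the 82 had CPM values that separated the 6 WT from the 6 P278KY mice without overlap, whereas 3.73% of all genes did.

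Summed with copies, 0 of 81 families passed edgeR, against 5.4% of all genes, and the smallest adjusted p was 0.0802, for Rpl28. The genotypes did not overlap in 1 of the 81 families, against 3.75% of all genes when copies were summed. The median family change was −0.03, with 17 families positive and 64 negative, while the median over all genes was −0.00. At an unadjusted p under 0.05 there were 10 families, 2 higher and 8 lower, against 20.3% of all genes.

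Other tests made between 0 and 3 calls. The Wald test of DESeq2 called 3 members lower, among them Rplp1 and Rps20, against 9.05% of all genes called. limma on log2(TPM + 1) called Rpl24 and Rpl10a higher, against 9.2%, and limma voom called 0 members, against 8.16%. On families, DESeq2 called 3 lower, among them Rps20 and Rpl28, against 9.1% of all genes. Of the 12 omissions of a single mouse, only that of P278KY male 7 made a call with edgeR on members, of Rpl10a as higher (log2 change 0.26, adjusted p = 0.0358 by edgeR; 0.0134 to 0.465 over all alternatives for that gene).

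The intervals show how large a change the data still allow. The 95% interval of the fold change lay within 1.1-fold either way for 38 members, within 1.2-fold for 56 and within 1.5-fold for 72. Families gave tighter intervals: of the 81 tested, 62 lay within 1.1-fold and 79 within 1.2-fold. The other 2 were Rpl3l and Rps4y2. The median standard error (SE) of the log2 change was 0.05 for members, 0.03 for families and 0.07 for all genes. In simulated counts with the same design, the changed genes were drawn at random from all tested genes. The test recovered 1 of 50 genes changed 1.1-fold, 7 of 50 changed 1.2-fold and 34 of 50 changed 1.5-fold. The members' median SE is smaller than that of all genes, so these shares do not give the recovery for members. The absence of a call at the smallest folds says little by itself.

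**Figure D2:**
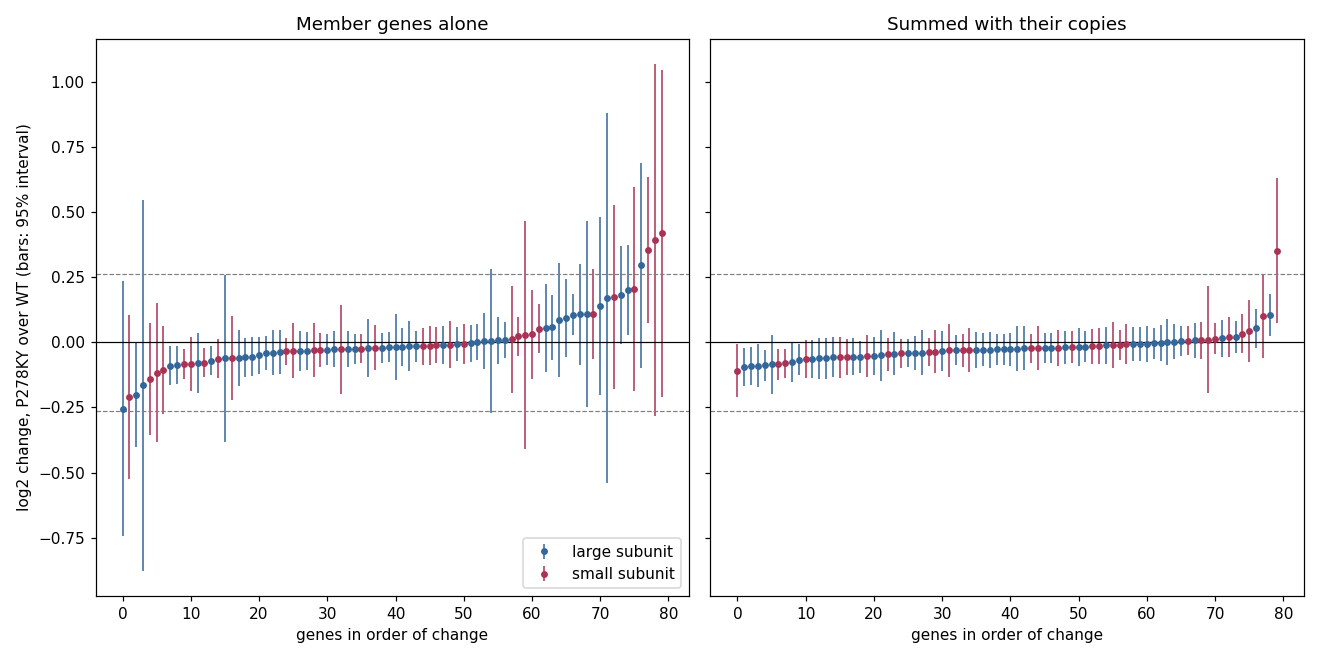
Log2 change with genotype (P278KY over WT, vertical axis) of each member alone (left) and summed with its copies (right), in order of size, with 95% intervals, large subunit in blue and small subunit in red. Dashed lines mark 1.2-fold either way. Intervals shrink when copies are added, and 79 of 81 families then lie within the lines. Rpl3l and Rps3a2, whose intervals run off the scale, are not drawn.

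Among the members with the smallest p toward higher values, Rpl24 (chr16:55973883-56008913), a large subunit protein at the bridge between subunits, had the most even pattern. Its CPM was 49.6, 51.8 and 54.6 (lowest, median and highest) in the 6 WT mice and 52.6, 56.2 and 59.2 in the 6 P278KY mice. The groups overlapped between 52.6 and 54.6 CPM, and the log2 difference was 0.11 (SE 0.04, adjusted p = 0.12 by edgeR). It had no copy at the identity and coverage searched.
Rpl10a (chr17:28328471-28331033), a protein of the movable L1 stalk, had 12.5, 14.5 and 16.1 CPM in the WT mice and 13.4, 16.7 and 18.1 CPM in those with the allele. Its log2 difference was 0.20 (SE 0.08, adjusted p = 0.18 by edgeR) alone and 0.05 (SE 0.03, adjusted p = 0.43) summed with its identical copy Rpl10a-ps1, which held 261 TPM against 40.1 TPM for the gene. Most of this family's signal was therefore listed under the copy.
Rps4y2 (chr6:148354656-148355598) is a pseudogene by type, named after the small subunit protein Rps4. It had 11.5, 19.4 and 20.9 CPM across WT and 20.5, 22.7 and 26.7 CPM across P278KY mice, with a log2 difference of 0.35 (SE 0.13, adjusted p = 0.14 by edgeR). The groups overlapped only through WT female 2, at 20.9 CPM.
For Rpl5, which carries the 5S ribosomal RNA into the large subunit, the log2 difference was 0.18 (SE 0.09, adjusted p = 0.27) alone and −0.06 (SE 0.04) with its 3 copies. For Rpl13 the value was 0.30 (SE 0.18, adjusted p = 0.40) alone and 0.01 (SE 0.03) with copies.

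The members with the smallest p toward lower values differed by under 0.1 on the log2 scale and had narrow spreads. Rps20 (chr4:3831334-3835665), a small subunit protein of the head, had 98.9, 100.5 and 109.4 CPM in WT against 93.4, 96.3 and 99.8 CPM in P278KY mice. Only the range from 98.9 to 99.8 CPM was shared, and the log2 difference was −0.08 (SE 0.03, adjusted p = 0.0969 by edgeR). On TPM, where libraries are scaled by the sum of length-corrected values, it was 0.01, while the median of all genes was −0.00 on counts and 0.06 on TPM.
Rplp1 (chr9:61913284-61914542) had 228.9, 242.5 and 253.3 CPM across WT and 220.0, 230.6 and 248.7 CPM across P278KY mice, with a log2 difference of −0.07 (SE 0.03, adjusted p = 0.15 by edgeR) that was 0.00 on TPM.
Rpl41 (chr10:128548114-128549305), which encodes the smallest ribosomal protein, had a log2 difference of −0.09 (SE 0.03, adjusted p = 0.16 by edgeR). Rpl39 (X chromosome), a protein of the exit tunnel wall, had −0.09 (SE 0.03, adjusted p = 0.17). In both the ranges of the genotypes overlapped.

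Grouped by role, no group had a member that passed the test. The P stalk, which recruits and activates elongation factors, comprises Rplp0, Rplp1, Rplp2 and, at its base, Rpl12. Summed with copies, the log2 differences were −0.09 (SE 0.03) for Rplp0, −0.07 (SE 0.03) for Rplp1, −0.03 (SE 0.03) for Rplp2 and −0.04 (SE 0.04) for Rpl12, and none passed (adjusted p = 0.14 to 0.58 by edgeR). All 4 family values lay below the median of all genes, but most families were low, with 64 of 81 negative and a median of −0.03.
Rplp0 alone had 167.3, 185.6 and 190.5 CPM in WT against 132.3, 156.6 and 186.6 CPM in P278KY mice, a log2 difference of −0.20 (SE 0.09, adjusted p = 0.24). The 3 low mice were P278KY males 6 and 7 and female 9, at 132.3, 135.9 and 138.9 CPM. With copies added, the range in P278KY mice narrowed to 170.9 to 186.4 CPM.
The 9 exit tunnel proteins, which include Rpl4, Rpl19, Rpl23a and Rpl26, had a median log2 difference of −0.03, and the highest was Rpl17, at 0.11 alone and 0.01 with its copies. The 5S ribonucleoprotein genes Rpl5 and Rpl11, which bind the ubiquitin ligase Mdm2 when assembly fails, both had −0.06 with copies. The 6 proteins at the mRNA entry and exit sites, which include Rps2, Rps3, Rps14, Rps26 and Rps28, had a median of −0.01 alone and −0.03 in the family fit. Of 15 genes mutated in Diamond-Blackfan anaemia, an inherited failure of red cell production, 14 were tested, with a median of −0.02 alone and 0 calls. The missing one, Rps27, gave −0.06 (SE 0.04, adjusted p = 0.40) when its copies were summed, with 88.9 ± 3.35 CPM (SD, n = 6) in WT against 85.3 ± 3.97 CPM (SD, n = 6) in mutant cord.

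Paralogs of ribosomal protein genes were compared with their usual partners. Rpl22l1 had 31.8 ± 2.76 CPM in the WT mice against 30.04 ± 1.09 CPM with the allele (SD, n = 6 each), and its partner Rpl22 had 88.3 ± 3.20 and 88.3 ± 2.75 CPM. Log2 differences were −0.08 (SE 0.05) for Rpl22l1 and 0.00 (SE 0.03) for Rpl22, and neither passed. Rps27l, a p53 target, gave 0.01 (SE 0.10), Rpl7l1 gave 0.01 (SE 0.04) and Rpl7 gave 0.01 (SE 0.03). Rpl10l and Rpl39l, best known from testis, had means of 0.0 and 0.075 TPM, while Rpl10 had 91.1 TPM alone and Rpl39 had 256 TPM.
Rpl3l, which replaces Rpl3 in ribosomes of heart and skeletal muscle, had 26.1, 6.5, 11.1 and 4.1 CPM in mice 1, 2, 3 and 4. In the other 8 mice it had between 0.2 and 1.0 CPM. These were the same 4 mice in which skeletal muscle markers were high, and mouse 1 was highest on both. Its log2 difference with genotype was −0.73 (SE 0.87, adjusted p = 0.70 by edgeR). Rpl3 had 372 ± 42.8 CPM in the WT mice against 396 ± 13.8 CPM with the allele (SD, n = 6 each).

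Apart from the pseudogene Rps3a2 and from Rpl3l, which had the widest spreads between mice, several core genes with copies fell into 2 separate levels. For Rps3a1 (chr3:86137940-86142702), a small subunit protein, mice 1, 2, 6, 8, 10 and 12 had 161.9 to 176.4 CPM and the other 6 had 242.5 to 264.5 CPM. Its copy Rps3a2 (chr14:88123017-88123808), which differs from it in the coding sequence by T216C, T534C, A645T and T668C, had 64.7 to 71.9 CPM in the first 6 mice and 0 to 0.226 CPM in the others. The sum of gene and copies was 229.1 to 264.5 CPM over all 12 mice. Reads of this family were thus listed under Rps3a1 alone in 6 mice and under both entries in the other 6.

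Rps6, with 5.26 to 13.4 CPM, varied by a larger ratio than any of these genes but without such a gap between levels. The 2 levels were found in 14 members, of the 25 that varied 1.5-fold or more, in which the mice fell into 2 levels apart by at least 1.2-fold and in which the sum with copies ran to less than 1.5 times from the lowest to the highest mouse. The gap between levels was 1.26-fold to 2.25-fold.
Rpl7a (chr2:26910764-26913318), a large subunit protein, had 74.8 to 78.2 CPM in mice 2, 3 and 6 and 175.8 to 184.6 CPM in the other 9. In those 3 mice Rpl7a-ps11 had 61.2 to 68.9 CPM and Gm16477 had 16.8 to 19.96 CPM, and elsewhere they had at most 1.77 and 0.19 CPM.
Rpl13 (chr8:123102350-123105244) had 103.9 and 107.4 CPM in WT males 11 and 12 and 203.1 to 225.1 CPM in the other 10 mice. Gm15710 (chr5:92140294-92140929), which differs in the coding sequence by G519A, had 98.2 and 108.7 CPM in those 2 mice and at most 0.81 CPM elsewhere.
Rps2 (chr17:24718116-24721929), which lies at the mRNA entry site, had 86.7 to 109.8 CPM in mice 1, 2, 5, 7 and 11 and 177.9 to 202.2 CPM in the others. Its copy Rps2-ps13 on the X chromosome had 101.1 to 117.7 CPM in the first 5 and at most 0.02 CPM in the rest.
Rpl35a had 47.0 CPM in WT male 12 and 91.9 to 99.7 CPM in all others, with Gm10243 at 52.4 CPM in that mouse and at most 0.74 elsewhere. Others of this kind were Rpl21, Rpl29, Rps18, Rps7, Rpl17, Rps26, Rpl34 and Rpl14.

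**Figure D3:**
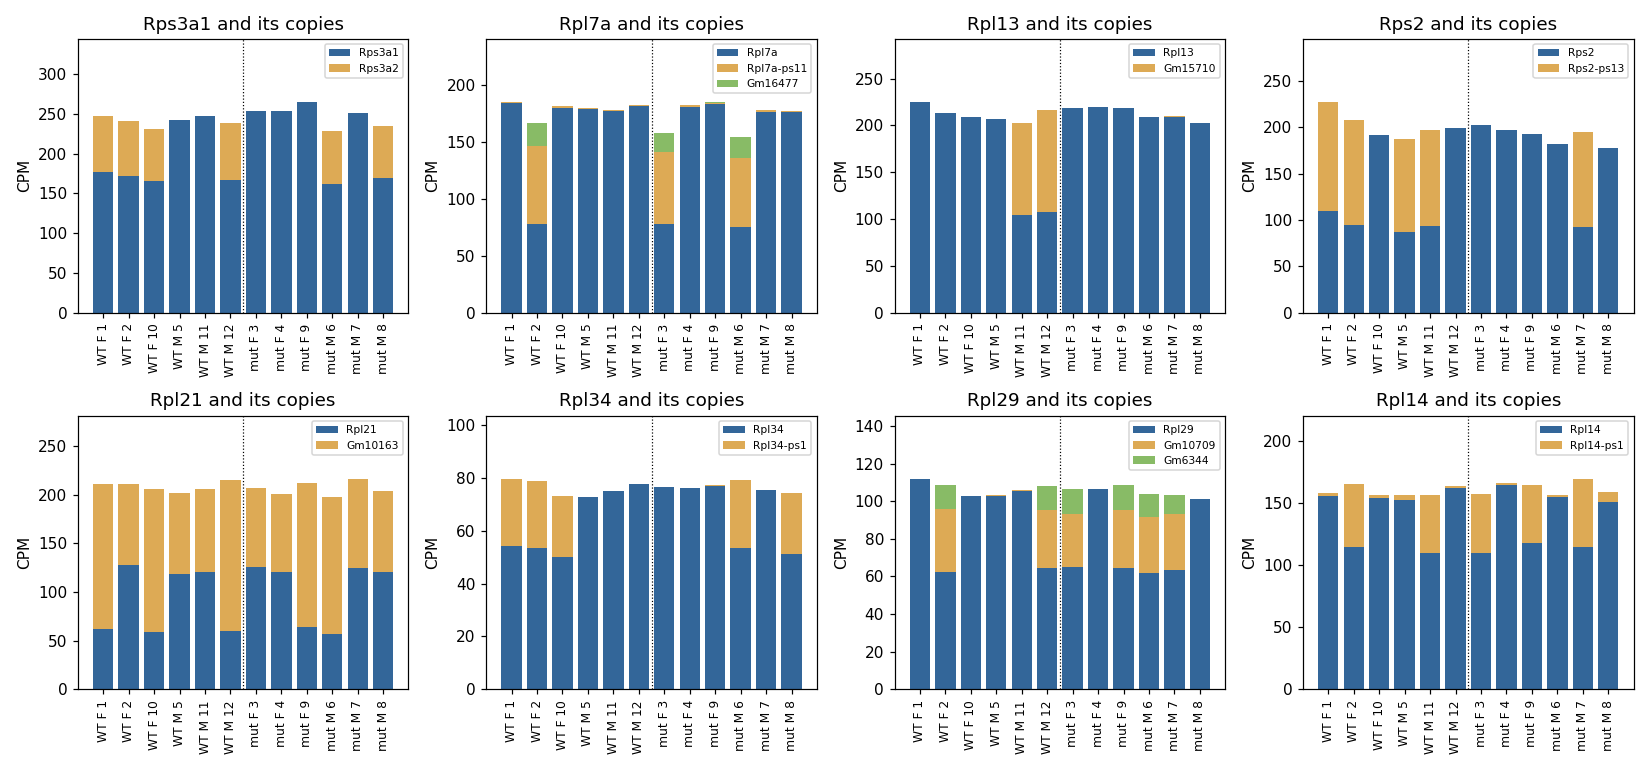
CPM per mouse (vertical axis) of 8 members in blue with their main copies stacked above in yellow and green. WT mice stand left of the dotted line and P278KY mice (mut) right of it, F and M mark sex, and the number is the mouse. Blue bars take 2 heights within each panel, while the stacks are closer to level, as in Rpl34, where gene and copies sum to 72.9 to 79.98 CPM.

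The mice at the low level differed from gene to gene, and in 3 pairs of members on the same chromosome they overlapped. On chromosome 17, Rps2 was low in mice 1, 2, 5, 7 and 11 and Rps18 in mice 1, 2, 5 and 7. On chromosome 3, Rps3a1 was low in mice 1, 2, 6, 8, 10 and 12 and Rpl34 in mice 1, 2, 6, 8 and 10. On chromosome 9, Rpl29 was low in mice 2, 3, 6, 7, 9 and 12 and Rpl14 in mice 2, 3, 7, 9 and 11, so that this pair shared 4 mice and differed in 3. WT male 12 was the only low mouse for Rpl35a on chromosome 16, Rps26 on chromosome 10 and Rpl17 on chromosome 18. The labels give a mixed strain background for all mice and no genotype at these loci, and the origin of the 2 levels was not tested.

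These 14 members were chosen for a wide range between mice alone and a narrower one with copies. Their fall in spread was therefore largely fixed by that choice. The SD of log2 CPM within genotype was 0.17 to 0.57 over the 14 members alone and 0.03 to 0.11 over their families. Over all members the median SD fell from 0.08 to 0.06, against 0.12 for all tested genes. A ratio of 1.5 or more between the highest and lowest mouse was found in 25 of the 82 members, against 41.4% of all genes, most of which have far lower counts. Among members with at least 50 CPM, 15 of 63 differed by 1.5-fold or more between the lowest and highest mouse, compared with 6.03% of all genes at that level.

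**Figure D4:**
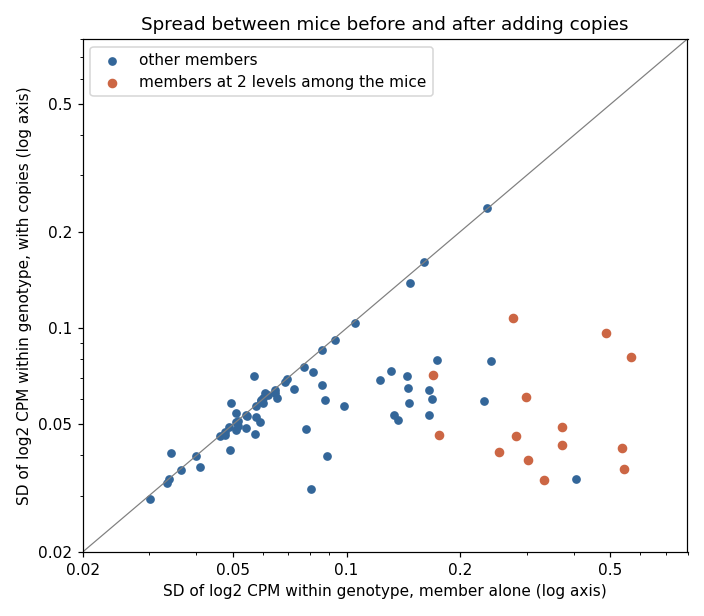
SD of log2 CPM within genotype (log axes) for each member alone (horizontal) and summed with its copies (vertical), with the 14 members at 2 levels in orange and the diagonal in grey. The orange points lie at 0.17 to 0.57 alone and at 0.03 to 0.11 with copies. They were chosen for a wide range alone and a narrower one with copies. Rpl3l and Rps3a2 are not drawn.

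In some genes the low mice fell unevenly between genotypes. Rps2 was low in 4 WT mice and in 1 P278KY mouse, and its log2 difference was 0.42 (SE 0.28, adjusted p = 0.46 by edgeR) alone and −0.11 (SE 0.05, adjusted p = 0.21) as a family. The copy Gm15710 of Rpl13 passed the test as a gene of its own, lower in P278KY (log2 change −8.05, SE 1.89, adjusted p = 0.0430 by edgeR), with its high values in WT males 11 and 12. Of 81 copies tested as genes 2 passed, a smaller share than the 5.32% of all genes. The other was Gm6030, a copy of Rps24, at 0.397 to 0.678 CPM in the WT mice and 0.688 to 0.983 CPM in those with the allele (log2 change 0.69, SE 0.19, adjusted p = 0.0496). Rps24 itself had 166.9 to 174.9 CPM across WT and 162.6 to 175.3 CPM across P278KY mice.

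Within each sex, no member passed the main test for genotype, and the change did not differ between sexes by it. edgeR called 0 of 82 in females (0.573% of all genes), 0 in males (1.55%), 0 for the interaction of genotype and sex (0.0%) and 0 for sex itself (0.089%). At an unadjusted p under 0.05 the counts were 5, 8, 3 and 10, against 12.4%, 14.3%, 3.7% and 8.95% of all genes. Among the 81 families they were 4, 4, 0 and 16, while the all-gene shares just given come from the fit of single entries. The median log2 change for sex (males over females) was −0.034 over families, against −0.0008 over all genes as single entries.
The smallest adjusted p in females was 0.0746, for Rpl34 (chr3:130726831-130730398), a large subunit protein. All 3 WT females had it at the low level, 49.97 to 54.4 CPM, and all 3 P278KY females at the high level. In males the order was the reverse, with all 3 WT males high and P278KY males 6 and 8 low. The log2 change was 0.54 (SE 0.12) in females, −0.32 (SE 0.12) in males and −0.86 (SE 0.16, adjusted p = 0.19 by edgeR) for the interaction. DESeq2 called Rpl34 in females, where it called 2.53% of all genes, and for the interaction, where it called 0.339%, and it called 0 members in males (4.09%). Leaving out P278KY male 7 also made Rpl34 pass edgeR in females, in males and for the interaction, and leaving out P278KY male 8 made it pass in females. Without WT male 5, Rpl13 passed in males (log2 change 0.97, SE 0.05, adjusted p = 5.63e-06) and for the interaction, and the remaining WT males were then the 2 at the low level. With copies summed, edgeR called 0 members in each of these comparisons, with all mice and with each mouse left out, and DESeq2 did not call Rpl34.
For sex, the smallest unadjusted p-values were those of Rps6 (log2 0.58 higher in males, SE 0.15, adjusted p = 0.32), Rpl3l (−3.99, SE 0.93, adjusted p = 0.32) and Rplp1 (−0.09, SE 0.03, adjusted p = 0.32), and DESeq2 called these 3, against 1.16% of all genes. Rps6 holds 3.3% of its family's TPM, and with copies its value was −0.02 (SE 0.03, adjusted p = 0.82 by edgeR), while DESeq2 on families called 2 members, Rpl3l and Rplp1. The 4 mice with Rpl3l and muscle markers were all female, and how far these markers account for the sex value was not tested.

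The sum over all members gives the share of transcripts listed under the member entries, without what was listed under their copies. It was 30463, 31144 and 32268 TPM (lowest, median and highest) in WT and 31325, 32836 and 34169 TPM in P278KY mice. The groups overlapped, and the ratio of means was 1.05, with 31265 ± 747 TPM in the WT mice against 32722 ± 1026 TPM with the allele (SD, n = 6 each). As CPM, which is scaled by TMM and has no length correction, the ratio was 1.002. The values were 9373 ± 153 CPM in the WT mice and 9394 ± 246 CPM with the allele. As a plain share of expected counts, without TMM, the members took 0.906% to 0.963% in WT and 0.923% to 0.996% in P278KY libraries. With copies added, the TPM sums were 41946 ± 1498 and 43101 ± 1321, a ratio of 1.03. On TPM the median change of all genes was also higher than on counts, as given above with Rps20. The members' own median log2 change was 0.0494 on log2(TPM + 1), below that of all genes. The members are short, with a median transcript length of 750 bases against 2431 for all tested genes. TPM and CPM differ here both in length correction and in TMM, and why they give different ratios was not tested.

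**Figure D5:**
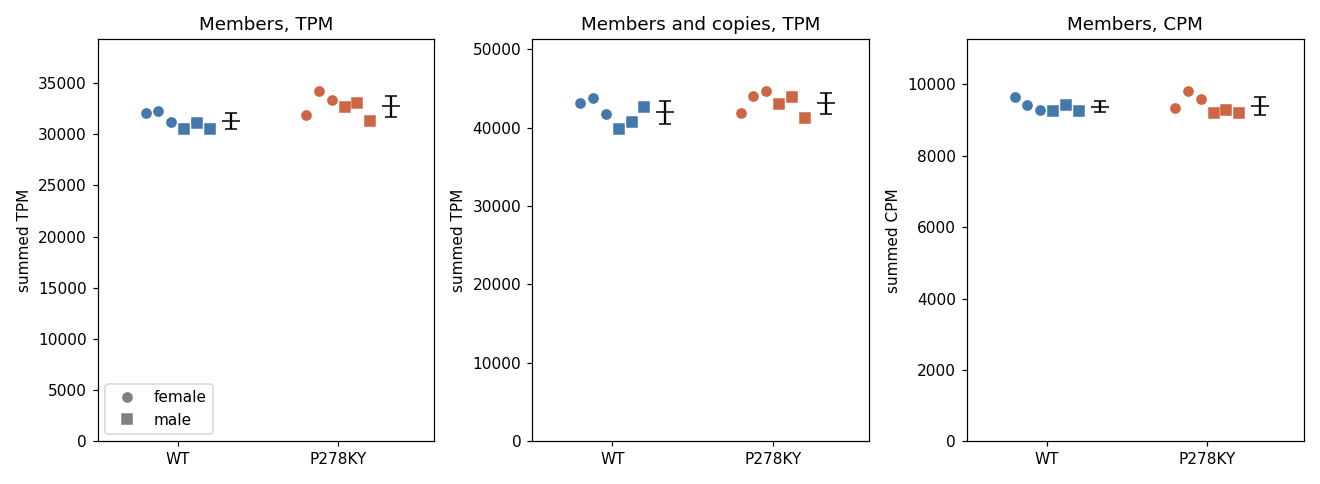
Summed level per mouse (vertical axes from 0) of the members in TPM (left), of members and copies in TPM (middle) and of the members in CPM (right), with WT in blue, P278KY in orange, circles for females and squares for males. Black bars give mean and SD (n = 6). The genotypes overlap in each panel, and the difference seen in TPM (ratio 1.05) is not seen in TMM-scaled CPM (ratio 1.002). The median change of all genes was also higher on TPM than on counts.

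Genes that work with the ribosome were read in the same fit. Among 6 ribosomal proteins that the name rule misses, 4 were tested and none passed. They include Fau, which is made as a fusion with a ubiquitin-like protein, Rpl36al, and Gnb2l1, the scaffold RACK1, with log2 differences of −0.00, −0.10 and −0.04. None of 15 genes of ribosomal RNA transcription passed, with Ubtf at 0.08 (SE 0.04) and Polr1a at −0.01 (SE 0.05). None of 52 ribosome assembly factors passed, with a median of 0.00, and the nucleolar proteins Ncl and Fbl had −0.03 (SE 0.04) and −0.00 (SE 0.05). Of 76 mitochondrial ribosomal proteins, which serve a separate ribosome, 0 passed and the median was −0.04.
Other mRNAs with a TOP motif were read as a further group of 18, of which 1 rose and 1 fell, against 2.36% and 2.95% of all genes. Hnrnpa1, an RNA-binding protein, rose (log2 0.14, SE 0.02, adjusted p = 0.006 by edgeR), and Tpt1, which encodes translationally controlled tumour protein, fell (log2 −0.17, SE 0.04, adjusted p = 0.038). The elongation factors Eef1a1 and Eef2 had −0.01 (SE 0.04) and −0.02 (SE 0.03).
Of 24 genes of mTORC1 and TOP mRNA control, 1 passed, a share near the 5.32% of all genes. It was Sesn2, a sestrin that restrains mTORC1, which rose (20.3 ± 0.799 CPM in the WT mice against 28.1 ± 1.597 CPM with the allele, SD, n = 6 each, log2 0.47, SE 0.04). Larp1, Mtor and Rps6kb1 had values of 0.01, −0.01 and 0.00. Sesn2 is also a target of the stress factor ATF4, and 14 of 26 ATF4 targets rose in the same mice, against 2.36% of all genes, among them the amino acid transporters Slc7a1 (0.55, SE 0.05) and Slc7a3 (0.76, SE 0.07), with a list median of 0.33. Of 34 nuclear genes of oxidative phosphorylation, 5 fell, against 2.95% of all genes, including Ndufa1 (−0.17, SE 0.03) and Ndufb6 (−0.18, SE 0.04).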

How the data were processed

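Whole cord RNA was measured by poly(A)-selected, stranded, paired-end sequencing, per the labels' protocols. The submitters' processing notes name Bowtie2 2.2.0 and RSEM 1.2.12. The authors deposited 1 gene table per mouse with expected counts, TPM and FPKM. The deposited expected counts are estimates by RSEM, in which reads that match several genes are divided among them. The deposited TPM values are scaled by transcript length and library, and the deposited FPKM values were not used. For the authors' genome build and annotation, the sources used here give no name.

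Rounded expected counts were filtered with filterByExpr, scaled with TMM and tested with edgeR 4.0.16 (robust quasi-likelihood, R 4.3.3) with sex and genotype as additive terms over 12 mice. Effects within sex and the interaction came from a model with 4 group means. P-values were adjusted by Benjamini-Hochberg over 17980 genes with a threshold of 0.05. SE was taken as the size of the log2 change divided by the root of F, and SD of log2 CPM uses an offset of 0.5 CPM. DESeq2 1.42.0, limma 3.58.1 (voom, and log2(TPM + 1) or log2(TPM + 0.1)), an effective length offset, other filters and left-out mice were alternatives. Copies were found with blastn 2.17.0 in GENCODE M21 (GRCm38), matched by gene identifier (37607 of 38924), and sums with them were chosen after seeing the data. The test was tried on simulated counts. Counts limit precision at depths of 26982140 to 39339999 per mouse. The members and lists were chosen with earlier results of these data known. Named are called members, otherwise the 5 smallest p in each direction, the 5 highest and lowest levels, paralog pairs, the largest spreads and up to 4 called genes of other lists. Genes whose coding sequences are copied elsewhere, Rps2, Rpl7a and others, are uncertain as single entries. Some members are not reported here by name.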

Additional observations from a re-analysis of the deposited data

Results flagged for a closer look

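In 28 groups of 6 mice examined for 1 value far from the others, 3 were picked out, and chance alone picks out about 1 in 20 groups. For Rps2 the lowest P278KY mouse, male 7, had 92.8 CPM, whereas the other 5 had 177.9 to 202.2 CPM. Its family sum in the P278KY mice was 179.1 to 204.4 CPM. For Rpl5 the highest P278KY mouse, again male 7, had 20.2 CPM against a median of 16.4 CPM, and Rpl5 held 6.8% of its family's TPM. For Rpl41, P278KY female 9 was highest at 184.6 CPM against a median of 175.3 CPM.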

How the results depend on the processing

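The count of members called for genotype, 0 by edgeR, was 3 with DESeq2, 2 with log2(TPM + 1), 2 with log2(TPM + 0.1), 3 with copies summed and DESeq2, and 0 to 1 when each mouse was left out. It was 0 under the remaining alternatives. Within females it was 1 with DESeq2 and 0 to 1 with a mouse left out, within males 0 to 1, and for the interaction 1 with DESeq2 and 0 to 1. For sex it was 3 with DESeq2 and 2 with copies summed and DESeq2. The median log2 change of −0.02 was 0.0494 on log2(TPM + 1) and 0.0498 on log2(TPM + 0.1), where all genes had 0.06, and −0.04 to −0.01 under the others. The ratio of summed levels, 1.05, was 1.002 as CPM.

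Single genes turned as follows, none of them called. Rpl5 became −0.0617 with copies and −0.0602 with copies and DESeq2. Rps2 became −0.109 with named pseudogenes, −0.109 with copies and −0.107 with copies and DESeq2. Rps20 was 0.00695 and 0.00697, and Rplp1 was 0.00337 on both, with 1 and 0.1 added to TPM. Rpl13 was −0.000222 without mice 9 to 12. Rpl28 was 0.0368 without mice 1 to 4 and −0.0427 to 0.0196 with each mouse left out.

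No paired analysis was possible because mouse numbers are not shared between groups. Depth limits the lowest members, such as Rpl3l with 0.2 to 1.0 CPM in 8 mice. In simulated counts, changes under about 1.2-fold were rarely recovered in genes drawn from all those tested, which were not chosen to resemble the members. The causes of these dependences were not tested.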
